A study of Rattus norvegicus with 6 samples.

Results

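The genes described here are 10 genes of the acute phase response: A2m, Fga, Fgb, Fgg, Hp, Hpx, Cp, Lbp, Serpina3n and Orm1. They were chosen by symbol from the 31368 rows of the deposited count table, and each symbol matched a single row. The choice was made with the difference between the groups already known, so the values of these genes in that contrast are given as a description. They were part of the fit across all genes, and their calls in it are counted but not used as evidence. RNA came from renal tissue of wild-type male Sprague-Dawley rats, with the disease model set up at 8 weeks of age. The 3 control libraries carry the label Sham and were compared with 3 libraries of the CKD group (chronic kidney disease). The sources used here do not give how the disease was brought about, and the labels do not say that each library came from its own animal.

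Acute phase proteins are plasma proteins whose blood level changes during inflammation, and the hepatocyte is their main source. Interleukin-6 and related cytokines act on these genes through the transcription factor STAT3, with help from factors of the C/EBP family, and interleukin-1 adds to the response of some of them through NF-kB. In the rat A2m is a classic gene of the IL-6 response, as are the fibrinogen genes, while Orm1 also answers to interleukin-1 and glucocorticoid. In the kidney, epithelial cells are known to make some of these proteins after injury, fibrinogen among them.

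Library totals ran from 15918035 to 17503644 counts. Sham 2 stood apart, with 37.9% of its counts on mitochondrial genes against 14.4% and 15.3% in Sham 1 and Sham 3 and 8.83% to 10.8% in CKD. Values below are CPM, counts scaled to a common library size with TMM factors (a correction for composition), unless counts are named. The label "made in kidney" held for some of the 10 genes only. Orm1 had 0 counts in all 6 libraries and Serpina3n 0 in 4 of them, while Cp and Fga were above 12 CPM in every library. Of 8 hepatocyte markers 5 were at or near 0, among them Ttr with no count, Alb with at most 6 counts and Apoa1 with at most 21 in any library. The other 3 were present: Apoh reached 34.9 CPM in Sham 1, Apob 25.3 CPM and Apoc3 17.1 CPM in Sham 3. The summed level of the 8 was 12.1 to 50.9 CPM in Sham and 21.9 to 28.3 CPM in CKD. Of these 3, which were the ones tested, 0 passed in edgeR, 0 had an unadjusted p under 0.05, and DESeq2 and limma-voom called 0. In bulk tissue, a change in the number of cells of a type and a change in RNA per cell cannot be told apart.

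The sequences before the genes' starts are shown for the fibrinogen genes, which lie side by side and moved unequally, and for Serpina3n, which was almost silent here. They are RefSeq sequences of build GRCr8 from a table that matched 7 of the 10 genes, not A2m, Hp or Lbp. At most 250 bases were read, ending just before the outermost annotated start, which left 96 bases for Fgg and none for Cp. Capitals mark matches to TTCNNNGAA (the STAT form), CTGGGAA (an IL-6 element core) or TTGCNNAA (a C/EBP form), searched on both strands. Fga is shown from chr2:170671919-170672168 on the plus strand, Fgb from chr2:170700876-170701125 on the minus strand, Fgg from chr2:170652833-170652928 on the plus strand and Serpina3n from chr6:129088142-129088391 on the plus strand.
Fga: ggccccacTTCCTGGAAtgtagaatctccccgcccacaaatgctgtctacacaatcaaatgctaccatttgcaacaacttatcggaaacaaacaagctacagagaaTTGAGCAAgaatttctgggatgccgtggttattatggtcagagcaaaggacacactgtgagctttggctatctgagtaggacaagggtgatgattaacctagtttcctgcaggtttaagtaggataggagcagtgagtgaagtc
Fgb: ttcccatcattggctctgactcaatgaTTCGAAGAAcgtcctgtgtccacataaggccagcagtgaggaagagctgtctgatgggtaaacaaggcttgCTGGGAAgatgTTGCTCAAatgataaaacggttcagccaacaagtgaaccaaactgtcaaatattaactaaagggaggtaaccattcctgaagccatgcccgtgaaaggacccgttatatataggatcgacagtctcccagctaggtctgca
Fgg: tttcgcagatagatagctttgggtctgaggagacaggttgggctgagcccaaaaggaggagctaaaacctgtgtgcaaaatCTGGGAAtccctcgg
Serpina3n: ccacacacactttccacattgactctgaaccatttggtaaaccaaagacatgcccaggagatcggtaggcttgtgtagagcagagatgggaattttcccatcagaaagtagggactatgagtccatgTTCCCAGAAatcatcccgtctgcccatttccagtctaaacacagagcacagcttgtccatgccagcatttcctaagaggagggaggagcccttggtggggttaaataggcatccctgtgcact
Counting the base before the start as -1, Fgb held all 3 forms, with the STAT form from -223 to -215, the IL-6 core from -152 to -146 and the C/EBP form from -141 to -134. Fga held the STAT form from -242 to -234 and the C/EBP form from -144 to -137, and Fgg the IL-6 core from -15 to -9 in its shorter window. In Serpina3n the IL-6 core, read on the minus strand, lay inside the STAT form at -123 to -115. Upstream of Orm1 and of Hpx there was 1 C/EBP form each. Among 33469 windows of 250 bases, 7.67% held the STAT form, 9.56% the IL-6 core and 9.22% the C/EBP form. A match is a string of letters in these windows and does not show that a factor binds there.

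Of the 10 genes, 8 had enough counts to enter the fit. In edgeR's quasi-likelihood test 3 of them, A2m, Fgb and Lbp, passed an adjusted p of 0.05, all higher in CKD, where 3.82% of 15371 genes passed in either direction, 2.67% higher and 1.15% lower. In 6 the CKD libraries all lay above the Sham libraries, namely A2m, Fgb, Fgg, Hpx, Cp and Lbp, and the groups did so in 18.8% of all genes tested (31.2% without overlap in either direction, 12.4% with CKD lower). Fga and Hp overlapped between the groups. Because this contrast was in view when the genes were chosen, nothing is read from these counts. Their median log2 fold change was 2.26, beside -0.01 for all genes tested, with Serpina3n and Orm1 outside the fit. The 3 calls were lost without Sham 2, Sham 3, CKD 1 or CKD 2 (0 calls each, with 4 to 6 of the 8 at an unadjusted p under 0.05), and that of Fgb also without Sham 1. With limma-voom 0 of the 8 passed (5 at an unadjusted p under 0.05), and DESeq2 called 5, Cp and Hpx in addition.

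**Figure D1:**
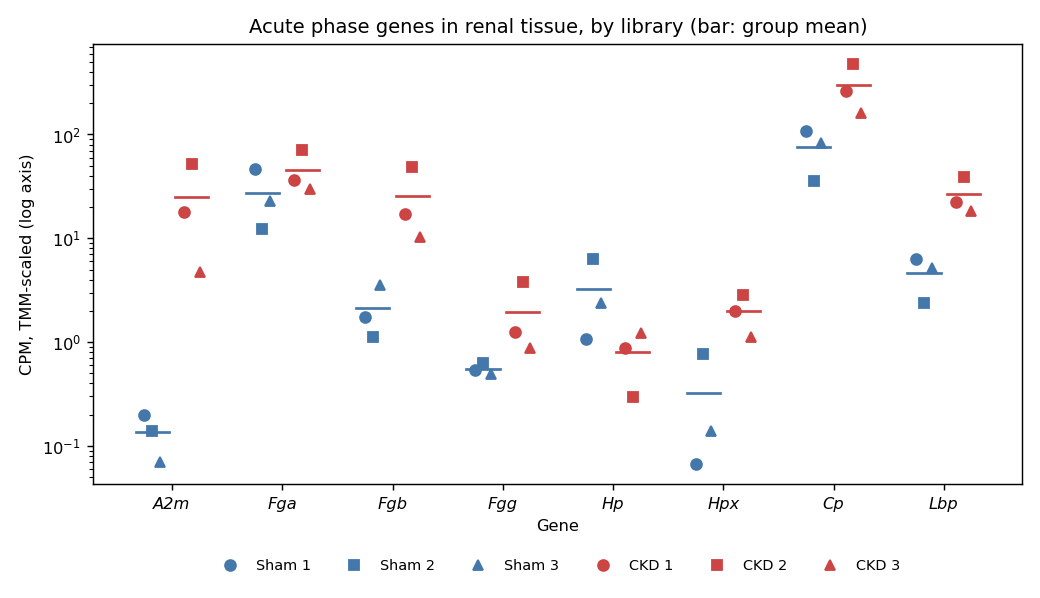
CPM of 8 acute phase genes in each of the 6 libraries on a log axis, with blue for Sham and red for CKD, a marker shape per replicate number and a bar at each group mean. A2m stood at 0.20 CPM or less in Sham and at 4.76 to 52.5 CPM in CKD, while Hp was the gene with the lower mean in CKD.

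A2m encodes alpha-2-macroglobulin, a large plasma protein that traps proteases and is the best known strong acute phase protein of the rat. It stood at 0.20, 0.14 and 0.07 CPM in Sham 1, 2 and 3, which is 3, 2 and 1 counts. In CKD 1, 2 and 3 it stood at 17.8, 52.5 and 4.76 CPM. The groups were far apart, and yet CKD 2 held 11.03 times the level of CKD 3. Over the groups there were 6 counts in Sham and 1518 in CKD. This is a ratio of 182 after scaling, with an exact 95% interval of 83.6 to 498 that covers counting error only. Per kb of gene length A2m ranked above 0.29% of the tested genes in Sham and above 45.5% in CKD. Genes under the count filter are not in this rank. A2m passed that filter only through its CKD counts, so nothing is read from its low place in Sham. Without CKD 2 the fitted log2 fold change moved from 7.43 to 6.29. In the deposited coordinates A2m lies on chromosome 4 from 154897877 to 154947786, and the nearby relative Mug1 had 0 counts in every library. Although Rnor_6.0 is the build in the submitters' notes, the build of these coordinates is uncertain, with 260398790 as the highest gene end on chromosome 1.

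Fga, Fgb and Fgg encode the alpha, beta and gamma chains of fibrinogen, the clotting protein that is cut to fibrin and whose molecule holds the chains in equal numbers. The genes lie within 50.97 kb of chromosome 2 in the deposited coordinates, from 168355013 to 168405979, in the order Fgg, Fga and Fgb, with Fgb on the opposite strand. Fga was present in all libraries, at 46.6, 12.4 and 22.7 CPM in Sham 1, 2 and 3 and at 36.3, 70.7 and 29.6 CPM in CKD 1, 2 and 3. Sham 1 thus lay above CKD 1 and CKD 3, and the log2 fold change was 0.74 ± 0.52 (SE). It was 0.28 without CKD 2, 0.35 without Sham 2 and 1.34 without Sham 1.

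Fgb was low in Sham, at 1.73, 1.12 and 3.52 CPM, and stood at 17.3, 48.5 and 10.4 CPM in CKD 1, 2 and 3. The lowest CKD library lay above the highest Sham library, with a log2 fold change of 3.58 ± 0.69, or 2.71 without CKD 2. Fgg was the scarcest chain, with 8, 9 and 7 counts across Sham against 26, 76 and 17 across CKD. In CPM this is 0.53, 0.63 and 0.49 in Sham and 1.25, 3.78 and 0.87 in CKD. The groups did not overlap. The log2 fold change was 1.82 ± 0.67 with all libraries and 0.94 once CKD 2 was left out. The 3 chains thus differed in both their starting level and the size of their difference.

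Per kb of gene length, the scale on which different genes can be set side by side, the levels of the chains were unequal. In Sham the means were 10.3 ± 6.63 CPM per kb for Fga, 1.10 ± 0.64 for Fgb and 0.29 ± 0.04 for Fgg (SD, n = 3). In CKD they were 17.2 ± 8.31, 13.1 ± 10.5 and 1.05 ± 0.84. The ratio of Fgb to Fga within a library was 0.051, 0.124 and 0.212 in Sham 1, 2 and 3, and 0.652, 0.938 and 0.480 in CKD 1, 2 and 3. Every CKD ratio lay above every Sham ratio, and in CKD 2 the alpha and beta chains were close to level. The ratio of Fgg to Fgb was 0.317, 0.580 and 0.144 in Sham and 0.075, 0.080 and 0.086 in CKD, so it was lower in each CKD library and nearly the same in all 3 of them. That of Fgg to Fga stayed under 0.08 in all 6 libraries and overlapped between groups. A ratio within a library does not depend on its scaling. The gene lengths are the authors' and the part of each transcript that the libraries captured was not tested.

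**Figure D2:**
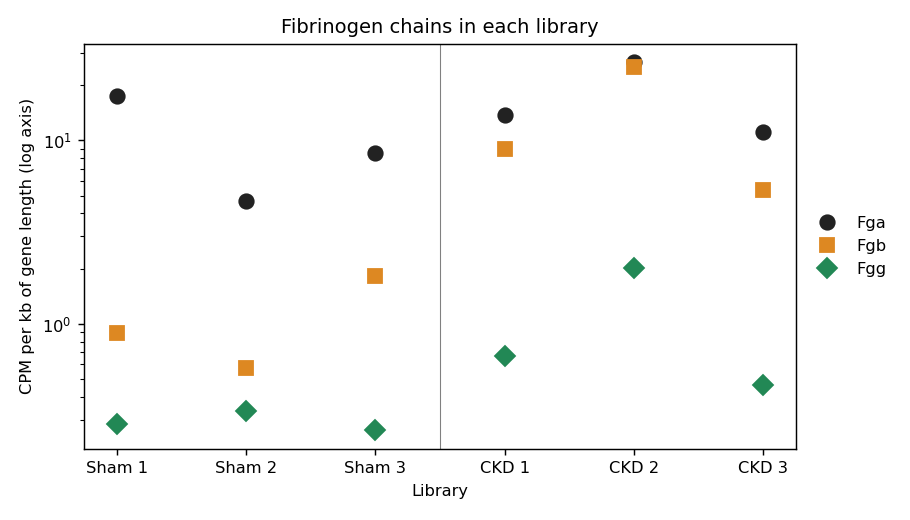
Fga, Fgb and Fgg in each library as CPM per kb of gene length, on a log axis, with Sham to the left of the line and CKD to the right. Fgb lies well under Fga in Sham and close to it in CKD 2 (25.01 against 26.65 CPM per kb), while Fgg is the lowest in every library.

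Among the genes within 200000 bases of the fibrinogen genes, Plrg1, a splicing factor gene 2145 bases from Fgb, averaged 23.8 CPM in the Sham libraries against 33.0 in the CKD libraries (edgeR adjusted p = 0.291, log2 fold change 0.47). Lrat, which esterifies retinol, did not pass the filter on low counts, with 5, 0 and 0 counts in Sham 1, 2 and 3 against 110, 98 and 7 in CKD 1, 2 and 3. Plrg1 and Lrat were both highest in CKD 1, not in CKD 2.

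Hp encodes haptoglobin, which binds free hemoglobin, and Hpx encodes hemopexin, which binds free heme. They stood on opposite sides. Hp was at 1.07, 6.36 and 2.39 CPM in Sham 1, 2 and 3 and at 0.87, 0.30 and 1.23 CPM in CKD 1, 2 and 3, from 6 to 91 counts a library. CKD 3 lay above Sham 1, so the groups overlapped, and the highest value was that of Sham 2. The log2 fold change was -2.025 ± 0.79, or -1.14 without Sham 2.

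Hp is also known as a product of neutrophils, and their markers shared its order in the Sham libraries but not in the CKD libraries. The summed level of 7 neutrophil markers was 2.60, 25.01 and 15.1 CPM in Sham 1, 2 and 3 and 5.60, 2.14 and 2.15 CPM in CKD 1, 2 and 3. Of the 7, 6 had the Sham order of Hp (Sham 2 highest, then Sham 3, then Sham 1). That order was shown by 23.9% of all tested genes. Only 3 of the 7 markers were tested, so this share does not cover the rest of them. S100a8 counts were 3, 64 and 38 in the Sham libraries and 6, 0 and 1 in the CKD libraries, those of S100a9 were 17, 163 and 70 against 10, 8 and 3, and Mpo had 1 count in all. Of the 3 tested markers 0 passed in edgeR or limma-voom, 1 had an unadjusted p under 0.05, and DESeq2 called 1. The tested markers did not all go one way, with log2 fold changes of -4.04 for S100a9, -0.72 for Cxcr2 and 0.37 for Csf3r. The part of these markers in the Hp values was not tested.

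**Figure D3:**
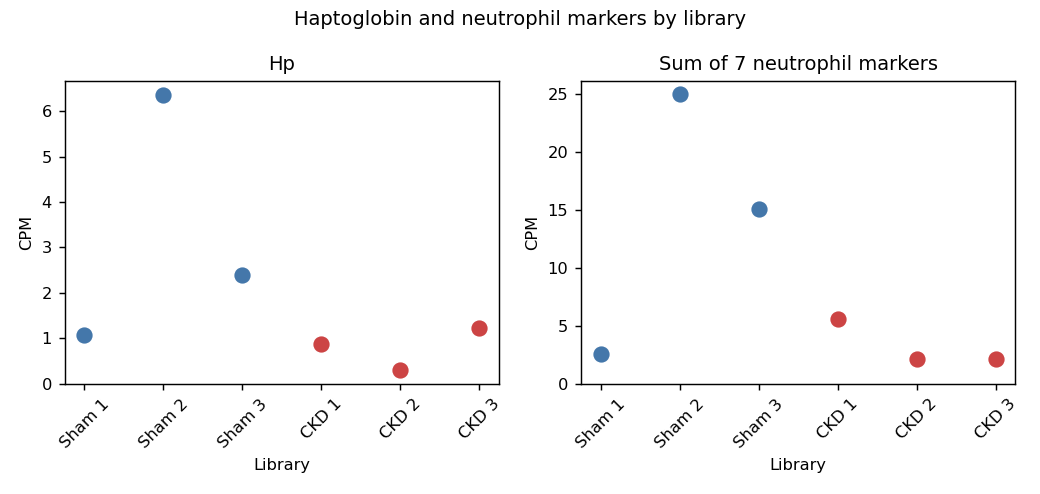
CPM of Hp (left) and the summed CPM of 7 neutrophil markers (right) in each library, blue for Sham and red for CKD. In both panels Sham 2 is the highest and Sham 3 the second highest library, at 6.36 and 2.39 CPM for Hp.

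Counts of Hpx were 1, 11 and 2 in Sham 1, 2 and 3 against 41, 57 and 22 in CKD 1, 2 and 3, or 0.07, 0.77 and 0.14 CPM against 1.98, 2.83 and 1.13 CPM. The lowest CKD library lay above Sham 2. The log2 fold change was 2.585 ± 0.85 and moved to 4.13 without Sham 2 and to 2.04 without Sham 1. Over the groups, the ratio of scaled counts was 6.18 with a counting interval of 3.54 to 11.6. Even in CKD, Hpx ranked above only 19.2% of tested genes per kb.

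Cp encodes ceruloplasmin, the copper ferroxidase that loads iron onto transferrin, and it was the most abundant of the 10 genes. Its level was 109, 35.6 and 81.9 CPM in Sham 1, 2 and 3 and 265, 478 and 161 CPM in CKD. Cp alone made up 60.0% to 73.0% of the summed CPM of the 10 genes in each library. The groups did not overlap, with a log2 fold change of 1.997 ± 0.52, or 1.502 without CKD 2. Per kb it ranked above 76.6% of tested genes in Sham and 95.4% in CKD. Cp lies on chromosome 2 from 102439624 to 102498075 and overlaps Hps3 on the other strand, a gene of lysosome-related organelles. Hps3 averaged 9.54 CPM in Sham against 18.5 in CKD (edgeR adjusted p = 0.0762, log2 fold change 0.95). The sources used here do not give whether counting used strand, and reads of the overlap cannot be told apart.

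Lbp encodes the lipopolysaccharide-binding protein, which hands bacterial lipopolysaccharide to CD14 and the receptor TLR4. It was at 6.34, 2.38 and 5.21 CPM in Sham 1, 2 and 3 and at 22.3, 39.3 and 18.4 CPM in CKD. The lowest CKD library lay well above the highest Sham library. The log2 fold change was 2.52 ± 0.45, or 2.14 without CKD 2 and 2.16 without Sham 2. Within a library, the ratio of Lbp to Cp per kb was 0.094 to 0.108 in Sham and 0.133 to 0.186 in CKD, so these genes stood in a narrow ratio while each varied by 2.13 to 3.06 times among the libraries of a group.

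Serpina3n, a serine protease inhibitor of the antichymotrypsin family, had 0 counts in the 3 Sham libraries and in CKD 3, and 2 and 4 counts in CKD 1 and CKD 2. A count of 0 allows up to 3 counts, or 0.20 to 0.21 CPM in a Sham library, so no fold change is given. Its neighbour Serpina3a was counted 26, 21 and 67 times in the Sham libraries and 255, 586 and 109 times in the CKD libraries (edgeR adjusted p = 0.0817, log2 fold change 2.57 ± 0.71). Reads can be shared among these closely related genes, so the counts of both are uncertain. Orm1, which encodes the plasma glycoprotein orosomucoid, had no count in any library, which allows up to 0.145 to 0.154 CPM in the CKD libraries and 0.20 to 0.21 CPM in the Sham libraries.

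In order of level per kb in Sham the genes ran Cp (18.2 CPM per kb), Fga (10.3), Lbp (1.82), Fgb (1.10), Hp (0.97), Fgg (0.29), Hpx (0.21) and A2m (0.03). In CKD they ran Cp (72.7), Fga (17.2), Fgb (13.1), Lbp (10.4), A2m (5.10), Hpx (1.28), Fgg (1.05) and Hp (0.24). In Sham the ranges over libraries of neighbours in this order overlapped, except between Fga and Lbp and between Hpx and A2m. In CKD they overlapped from Fga down to Fgg, while Cp lay apart above and Hp apart below. The largest shifts in this order were those of A2m upward and Hp downward.

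The 3 CKD libraries were far from equal for these genes. All 7 genes with a positive fold change had the same order, with CKD 2 highest, then CKD 1, then CKD 3, while Hp was lowest in CKD 2. Of all tested genes 15.3% had that order, and of the 2893 genes whose CKD libraries all lay above Sham, 21.7%. The highest CKD library exceeded the lowest by 11.03 times for A2m, 4.66 for Fgb, 4.34 for Fgg, 2.97 for Cp, 2.51 for Hpx, 2.39 for Fga and 2.13 for Lbp. The median of this ratio was 1.34 over all tested genes and 1.41 over the 2893. This is a description of 3 libraries, and the fibrinogen genes share a locus.

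**Figure D4:**
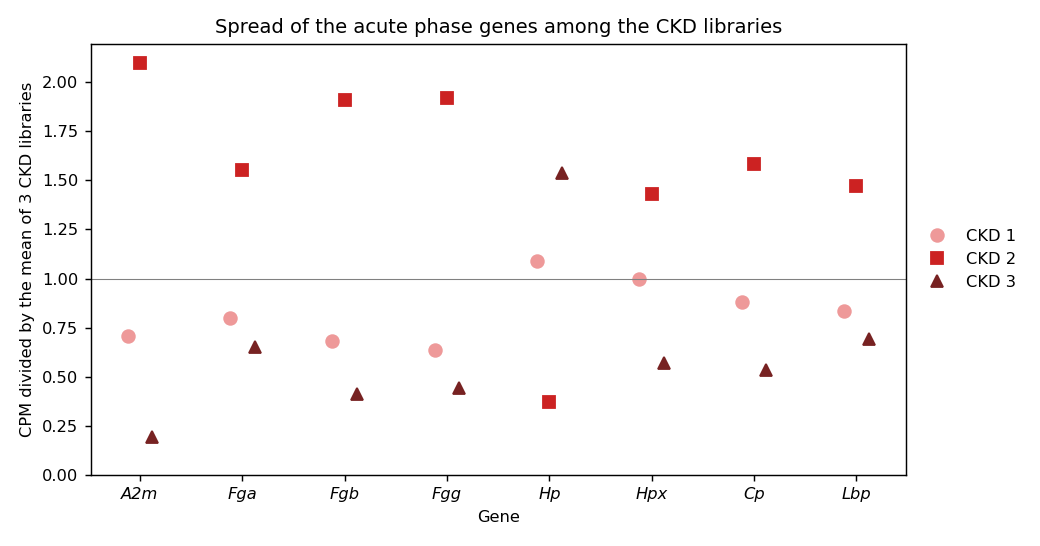
Level of each gene in CKD 1, 2 and 3, as CPM divided by the mean of the 3 CKD libraries. CKD 2 is the highest and CKD 3 the lowest for all genes shown except Hp, where CKD 2 is the lowest library at 0.30 CPM.

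The summed levels of injured tubule, macrophage and fibroblast markers were also lowest in CKD 3 but were highest in CKD 1. Single markers were mixed. The CKD order of the acute phase genes was shared by 3 of 7 macrophage markers (C1qa, Cd163 and Aif1). It was also shared by 2 of 7 injured tubule markers (Vcam1 and Krt8) and 1 of 7 fibroblast markers (Dcn). The order CKD 1, CKD 2, CKD 3 was that of 2 macrophage, 5 injured tubule and 5 fibroblast markers. For 7 injured tubule markers, among them Havcr1, Spp1 and Vcam1, the sums were 9498, 8150 and 2954 CPM in CKD 1, 2 and 3 and 372 to 968 CPM in Sham, with Havcr1 and Spp1 called higher. Of the 7, 5 had a positive fold change, while Sox9 and Krt18 had log2 fold changes of -0.38 and -0.87 with overlapping groups. For 7 macrophage markers, among them Csf1r, Cd68 and C1qa, the sums were 406, 328 and 199 CPM against 34.6 to 111 in Sham, with C1qa, Cd163 and Mrc1 called higher. For 7 fibroblast markers, among them Pdgfra, Col1a1 and Dcn, they were 1230, 1078 and 725 CPM against 64.3 to 430 in Sham, with Col1a1 called higher. In these 3 lists no marker was at 0 in all libraries. The part of these cells in the acute phase values was not tested. The sums of 5 proximal tubule markers (Lrp2, Slc34a1 and Slc5a2 among them) overlapped, at 4076 to 12730 CPM in Sham and 6393 to 9276 in CKD. So did those of red cells such as Hbb (184 to 579 against 136 to 349 CPM). The lowest Sham and highest CKD sums were 25.9 and 26.2 CPM for platelets (Pf4, Ppbp and Itga2b among them) and 14.2 and 26.3 CPM for adipocytes (Adipoq, Plin1 and Lep among them). In these 4 lists edgeR, DESeq2 and limma-voom called 0 genes, with 1 platelet and 1 adipocyte gene at an unadjusted p under 0.05.

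Genes that act upstream of the acute phase response came next. In the lists that follow, rose and fell mean an edgeR adjusted p under 0.05. Of all 15371 tested genes, 2.67% passed higher in CKD and 1.15% lower, and each count is to be read beside that share. Of 18 genes of the IL-6 family and STAT3, 16 were tested, 1 rose and 0 fell, with a median log2 fold change of 0.33. The gene that rose was Lif, leukemia inhibitory factor, a cytokine of the IL-6 family. Its counts were 16, 7 and 20 in the Sham libraries and 299, 405 and 65 in the CKD libraries (edgeR adjusted p = 0.0438, log2 fold change 3.67 ± 0.73). Lif had the CKD order of the acute phase genes, with CKD 2 highest and CKD 3 lowest. Il6 itself had 1 to 6 counts in Sham and 3, 13 and 1 in CKD, too few to enter the fit. Bcl3, a nuclear partner of NF-kB, and Il6st, the shared receptor chain gp130, had log2 fold changes of 1.599 ± 0.50 and 0.80 ± 0.26 (edgeR adjusted p = 0.11 and 0.119). Stat3 had means of 248 and 264 CPM, and Socs3, its feedback inhibitor, 28.7 and 42.1 CPM, with overlapping groups for both.

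Of 16 genes of IL-1, TNF and NF-kB signalling, 14 were tested, 0 rose and 1 fell, with a median of 0.57. It was Il1r2, the decoy receptor of interleukin-1, counted 37, 42 and 46 times in the Sham libraries and 2, 9 and 1 times in the CKD libraries (edgeR adjusted p = 0.0426). Its log2 fold change was -3.81 ± 0.75, or -5.135 without CKD 2 and -3.37 without CKD 3. The log2 fold changes of Nfkbia, the inhibitor of NF-kB, and Myd88, the adaptor of Toll-like and IL-1 receptors, were -0.88 ± 0.25 and 0.77 ± 0.24 (edgeR adjusted p = 0.0871 and 0.105).

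Of 14 transcription factors typical of liver, 9 were tested, 0 rose and 1 fell, with a median of 0.10. Cebpb, the C/EBP factor known for driving acute phase genes in liver, fell from 278 ± 12.7 to 57.4 ± 11.9 CPM (n = 3, edgeR adjusted p = 0.0278). Its highest CKD library held 1407 counts and its lowest Sham library 3769, so it was lower in all 3 CKD libraries. The part of Cebpb in the acute phase values was not tested. For Nr3c1, the glucocorticoid receptor, the log2 fold change was 0.50 ± 0.32 without passing (edgeR adjusted p = 0.372).

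Other genes tied to the acute phase were listed next, mostly ones whose products rise in plasma, but also Mug1 and Mug2, whose product falls in the rat, and F3, a membrane protein. Of these 29 genes, 26 were in the table and 16 tested, with 3 that rose, 0 that fell and a median of 1.24. Those that rose were the complement genes C3, Cfb and C4b. Cfb, factor B of the alternative pathway, was counted 139, 114 and 174 times in the Sham libraries and 1666, 3006 and 441 times in the CKD libraries (edgeR adjusted p = 0.0448, log2 fold change 3.10 ± 0.63, or 2.40 without CKD 2), in the CKD order of A2m. C3, the central component, went from 14.6 ± 7.53 to 78.6 ± 23.9 CPM (edgeR adjusted p = 0.0415) and was highest in CKD 1. C4b, whose reads can be shared with C4a, averaged 3.59 and 387 CPM (edgeR adjusted p = 0.0335). Its log2 fold change was 6.75, or 6.17 without Sham 2 and 7.49 without Sham 3. C4a was more abundant, at 138 CPM in Sham and 1310 CPM in CKD. It did not pass (edgeR adjusted p = 0.0696, log2 fold change 3.24 ± 0.82). C9, Serpina1, Mug1 and Mug2 had no count in any library, and Crp had 4 counts in all. Of 15 listed genes known to fall in plasma, 14 were in the table and 6 tested. In edgeR 0 passed, 0 had an unadjusted p under 0.05, and DESeq2 and limma-voom called 0, with a median of 0.07. In that list Rbp4, Apoh and Tf had log2 fold changes of -1.42 ± 0.79, -1.93 ± 1.31 and 0.41 ± 0.38.

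**Figure D5:**
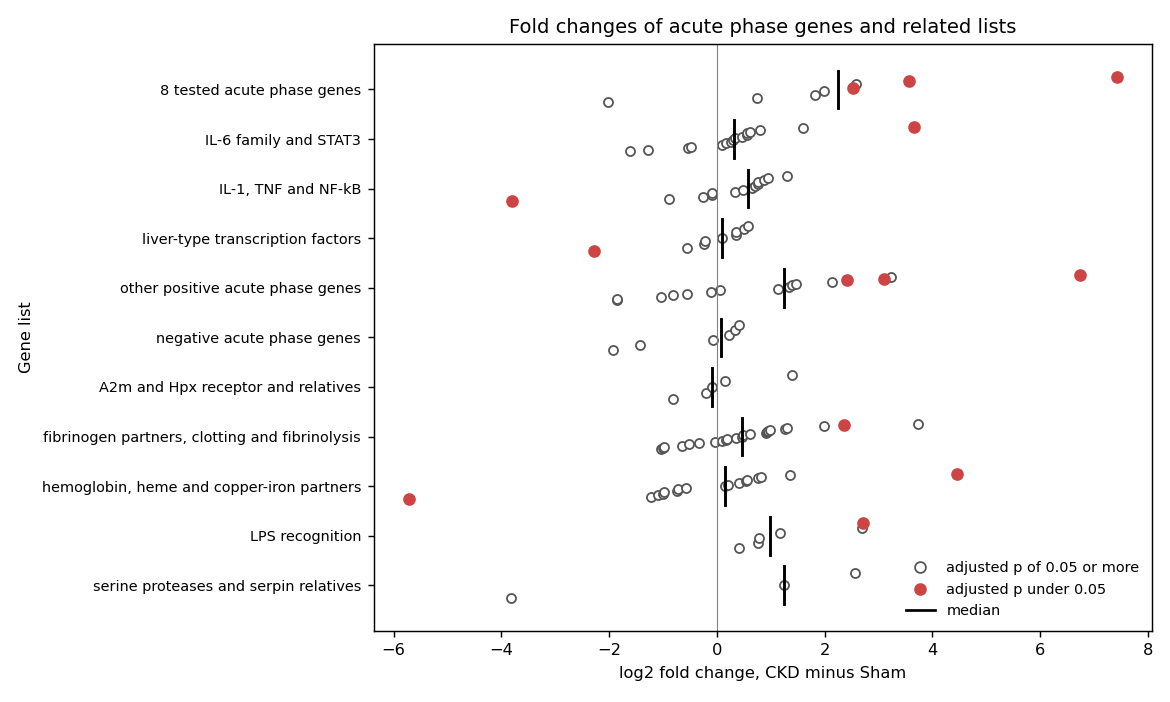
Log2 fold change, CKD minus Sham, of the 8 tested acute phase genes and of the tested genes of 10 related lists. Each point is a gene, filled red where its adjusted p was under 0.05, and the black bar is the list's median. The median was 2.26 for the acute phase genes and -0.09 to 1.26 for the other lists, the 1.26 from 3 tested genes. The acute phase genes were chosen with this contrast in view, so nothing is read from their higher median.

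The partners of the proteins were then set beside them. For A2m and Hpx, whose complexes are taken up by the receptor Lrp1, 5 of 8 listed genes were tested. In edgeR 0 passed (1 at an unadjusted p under 0.05, 1 called by DESeq2 and 0 by limma-voom), with a median of -0.09. Lrp1 averaged 59.7 ± 29.9 CPM in the Sham libraries against 158 ± 34.9 in the CKD libraries (edgeR adjusted p = 0.0942). Pzp, a relative of A2m, stood at 242 ± 160 and 137 ± 38.1 CPM, and Cd109, another relative, at 0.76 and 0.66 CPM (edgeR adjusted p = 0.423 and 0.887).

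Of 25 genes of fibrinogen binding, clotting and fibrinolysis, 23 were tested, 1 rose and 0 fell, with a median of 0.46. Itgam, a chain of the leukocyte integrin that binds fibrinogen, rose from 2.08 ± 0.60 to 10.7 ± 3.91 CPM (edgeR adjusted p = 0.0394). F10, clotting factor X, was counted 1, 0 and 2 times against 30, 15 and 16 times (edgeR adjusted p = 0.0546). Neither Itgam nor F10 had the CKD order of the acute phase genes.

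Of 18 genes of hemoglobin, heme, copper and iron handling, 17 were tested, 1 rose and 1 fell, with a median of 0.15. Cd163, the macrophage receptor for haptoglobin bound to hemoglobin, was counted 8, 1 and 3 times in the Sham libraries and 131, 128 and 114 times in the CKD libraries, which were nearly level (edgeR adjusted p = 0.0302). Its log2 fold change was 4.46 ± 0.63, or 3.975 without Sham 2 and 5.35 without Sham 1. Hmox1, which breaks down heme, fell in CKD (edgeR adjusted p = 0.0316) with a log2 fold change of -5.71, or -4.29 without Sham 3. For Slc11a2, an iron importer, it was -1.10 ± 0.24 without passing (edgeR adjusted p = 0.053).

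Of 8 genes listed for lipopolysaccharide recognition and Toll-like receptor signalling, not all of which bind lipopolysaccharide, 6 were in the table and tested. Of these 1 rose and 0 fell, with a median of 0.98. Tlr2, a Toll-like receptor other than the lipopolysaccharide receptor TLR4, rose from 1.43 ± 0.55 to 9.40 ± 4.59 CPM (edgeR adjusted p = 0.0415). Tlr4, the receptor itself, was counted 7, 19 and 46 times in the Sham libraries and 275, 258 and 126 times in the CKD libraries without passing (edgeR adjusted p = 0.0669, log2 fold change 2.69 ± 0.67). Cd14 stood at 8.66 and 11.5 CPM with overlapping groups. Of 11 serine proteases and serpins only 3 had enough counts, and of these 0 passed in edgeR or limma-voom, 2 had an unadjusted p under 0.05 and DESeq2 called 2. They were Serpina3a, given above, Mmp9 (log2 fold change -3.82 ± 1.001) and Gzmb (1.26 ± 0.65), with a median of 1.26.

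Over these lists 111 genes were tested, of which 7 rose and 3 fell, where 2.67% of all tested genes passed higher and 1.15% lower. In 25 of the 111 the CKD libraries all lay above Sham, where 18.8% of all tested genes showed this. Of these 25, 9 had the CKD order of the acute phase genes. Among them were Lif, Myd88, C5, Cfb, C4b, C4a, Serpina3a and Cd163, the last nearly level across the CKD libraries. That order was also found in 21.7% of the 2893 tested genes whose CKD libraries all lay above Sham, and nothing is read from either count. In place of 10 calls there were 0 when Sham 2, CKD 1 or CKD 2 was left out, 1 when Sham 3 was and 19 when Sham 1 was. With limma-voom 5 of the 10 did not pass, namely C3, Cfb, Itgam, Lif and Tlr2. Scaled by library totals alone, 25 rose and 3 fell, and the median log2 fold change over all genes was 0.41. In that scaling 91.9% of all called genes were higher, against 70.0% with TMM.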

How the data were processed

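RNA was sequenced from renal tissue in 6 libraries, 3 Sham and 3 CKD. Per the labels' protocols, TRIzol served for extraction and the VAHTS Universal V5 kit for library preparation. The authors deposited raw counts per gene, a column for each library, with no normalization. The build Rnor_6.0 and the tools HTSeq 0.11.2, HISAT2 2.1.0 and fastp 0.20.1 are named, per the submitters' processing notes. The gene lengths in bases are another value column that the authors deposited. The depth was 15918035 to 17503644 counts a library.

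The filterByExpr rule of edgeR, at a minimum count of 10 and a minimum total of 15, left 15371 genes. They entered a robust quasi-likelihood fit on group alone, with TMM factors (R 4.3.3, edgeR 4.0.16 and limma 3.58.1). Benjamini-Hochberg adjustment ran over all of them, with a threshold of 0.05. No label ties libraries to separate animals, so the p-values reflect library-to-library spread, which may be technical. Fold changes are CKD minus Sham with their SE, and ± after a mean is an SD. Counting intervals are exact binomial, and they and the floor of 3 counts for a value of 0 cover counting error only, since reads carry no molecular identifiers. The model was tested on simulated data. Where a 2-fold shift was put into 98 genes it called 3 (3.06%). With a 4-fold shift in 97 others the calls numbered 54 (55.7%). In the same test 4 genes without a shift were called. Most 2-fold shifts were thus missed, and the lack of a call does not show that a gene was level between the groups.

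The 10 genes and the lists were chosen with earlier results of these data known. Named were the 10 genes, the 3 genes of smallest p and the called genes of each pathway list, and the markers written first in each cell list. Other genes named (Il6, Stat3, Socs3, Cd14, Crp, neighbours, other markers, and genes sharing an order or at 0) were chosen after their values were seen. Alternatives were other scalings and filters, a fit that was not robust, limma-voom, DESeq2 1.42.0, removal of the 20 most abundant genes, a replicate block, and leaving out each library. Removal of mitochondrial genes was added after seeing the data. No column belonged to another series. Replicate numbers were not used as pairs. Some genes that this rule names are not reported here.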

Additional observations from a re-analysis of the deposited data

How the results depend on the processing

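Of 587 genes, 3 acute phase genes and 10 pathway genes called, scaling by library totals alone gave 2228, 4 and 28, DESeq2 gave 2497, 5 and 26, and limma-voom gave 195, 0 and 5 (5 acute phase genes at an unadjusted p under 0.05). Leaving out 1 library gave 0 to 1711 genes, 0 to 3 acute phase genes and 0 to 19 pathway genes. With a replicate block there were 10, 1 (A2m) and 0. The labels do not say whether the numbers pair the libraries, so the block is given for completeness only. Same-numbered libraries' deviations correlated at -0.22, 0.004 and -0.16 for numbers 1, 2 and 3. Those of differently numbered libraries correlated at -0.10 to 0.20. With 3 libraries a group, whose deviations are taken from their own mean, these values cannot decide it. RLE or upper-quartile factors, either filter, a fit that was not robust, and removal of the 20 most abundant or of the mitochondrial genes left the 3 counts within 1.5 times. No direction of the 8 acute phase genes or the 10 called pathway genes turned under the alternatives run. The cause of these changes was not tested. Low counts limit Fgg, Hp, Hpx and A2m in Sham, and Serpina3n and Orm1 throughout.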
